A study of Arabidopsis thaliana with 28 samples.

Results

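The glucosinolate pathway was followed in Arabidopsis seedlings as 42 genes named by locus for synthesis, regulation, transport and breakdown of glucosinolates, out of 23681 loci in the expression table. All 42 had a row, and 41 passed the filter of at least 10 normalised reads in at least 2 libraries. MYB76 (AT5G07700) did not pass. The set holds 20 genes of the aliphatic branch, 16 of the indolic branch, 2 core genes shared by both branches, 2 transporters and 2 myrosinases.

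Glucosinolates are sulfur-rich thioglucosides that crucifers store and, upon tissue damage, hydrolyse with myrosinases to isothiocyanates, nitriles and related defence compounds. Aliphatic glucosinolates are built from methionine after chain elongation in the plastid, and indolic ones from tryptophan, through parallel sets of CYP79 and CYP83 cytochromes P450 and a common lyase, glucosyltransferase and sulfotransferase sequence. MYB28, MYB29 and MYB76 drive the aliphatic genes, MYB34, MYB51 and MYB122 the indolic ones. The myrosinases TGG1 and TGG2 are made in guard cells and myrosin cells, where abscisic acid (ABA), the drought hormone that closes stomata, also acts.

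RNA from whole seedlings was sequenced in 28 libraries of 10 groups, with 3 libraries a group except for 2 in mock-treated Col-0 and 2 in Col-0 at 10 nM ABA. Col-0, the wild type, and aba2-1, a mutant of the ABA synthesis gene ABA2, were given mock solution, 10 nM ABA or 50 nM ABA. The lines named PYR1 CA, PYL6 CA, PYL5 CA and PYL4 CA, which express PYLCA forms of ABA receptors, received mock solution. All plants grew on MS plates for 7 days and spent 3 h in liquid MS with mock or ABA, although the age on the labels is 10 days after germination. The lines are T3 plants; the promoter, the number of insertions and the parent genotype of the CA lines are not given in the labels, so each line was set against both mock groups. The labels do not say that replicates were separate cultures, so the p-values measure the spread between these libraries. Groups of 2 or 3 libraries can lie apart without overlap by chance, and the share of all loci that do so is not given here. In whole seedlings, fewer cells of a type and less RNA per cell cannot be told apart.

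Libraries held 11989417 to 30942766 reads. RAB18, an ABA-induced dehydrin gene, had a mean of 24.2 normalised reads in Col-0 mock and 410 in Col-0 50 nM ABA, and of 16.2 in aba2-1 mock and 1121 in aba2-1 50 nM ABA. Reads of the receptor named on the label were highest in the lines labelled PYL4 CA, PYL5 CA and PYL6 CA, but in the line labelled PYR1 CA the PYR1 rows summed to 1022 ± 270 (SD, n = 3) normalised reads, below 3172 ± 356 (SD, n = 2) in Col-0 mock, so directions drawn for it rest on the label alone. The table row MCCA-NOS, which is no locus, was read in all 4 CA lines (means of 12320 to 22100 normalised reads), and was at 59.8 ± 70.9 (SD, n = 3) in aba2-1 50 nM ABA and at 0 in Col-0. Ribosomal RNA took 76.1% of reads in aba2-1 10 nM ABA replicate 3 and 1.49% to 10.5% elsewhere. Replicates lay widest apart in aba2-1 50 nM ABA and PYL5 CA (median SD over loci of 0.326 and 0.298 on the log2 scale, against 0.0839 to 0.167 in the other groups). Within aba2-1 50 nM ABA, 9 root marker genes summed to 4434, 7964 and 3567 normalised reads in replicates 1, 2 and 3, and 9 photosynthetic shoot genes to 729333, 524994 and 948328; their part in the results was not tested. The defining markers of guard cells, root and shoot were all read in the table, 26 of 27 of them in every library.

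Levels per gene length, in mean normalised reads per kb of transcript in Col-0 mock, ran from 1.29 for MYB76 to 9164 for TGG1. The other myrosinase, TGG2, stood at 1824. Among the indolic enzymes, the tryptophan-converting CYP79B2 and CYP79B3, the next enzyme CYP83B1 and the sulfotransferase SOT16 stood at 1148 for CYP79B2, 1471 for CYP79B3, 3936 for CYP83B1 and 2575 for SOT16. The ring hydroxylases of the CYP81F family gave 80.9 for CYP81F1, 459 for CYP81F2, 78.8 for CYP81F3 and 4581 for CYP81F4, and the methyltransferases 287 for IGMT1, 197 for IGMT2, 429.5 for IGMT3, 2295 for IGMT4 and 1031 for IGMT5. The aliphatic chain elongation genes gave 404 for BCAT4, 93.7 for BASS5, 821 for MAM1, 426 for MAM3, 268 for IPMI1, 641 for IPMI2, 1645 for IIL1 and 664 for IMD1, which encode an aminotransferase, a plastid importer, 2 condensing synthases, 3 isomerase subunits and a dehydrogenase. The aliphatic core genes had lower means than CYP79B2, CYP79B3, CYP83B1 and SOT16, at 158 for CYP79F1, 159 for CYP79F2, 532 for CYP83A1, 386 for UGT74C1, 418 for SOT17 and 473 for SOT18. The side-chain S-oxygenases gave 62.6 for FMO GS-OX1, 45.6 for FMO GS-OX3 and 224 for FMO GS-OX5. The shared C-S lyase and glucosyltransferase gave 862 for SUR1 and 1069 for UGT74B1, and the importers 158 for GTR1 and 607 for GTR2. The regulators gave 359 for MYB34, 384 for MYB51, 26.9 for MYB122, 240.4 for MYB28 and 11 for MYB29.

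IGMT5 (AT1G76790) encodes the indole glucosinolate methyltransferase that acts with CYP81F4 on the ring nitrogen. It was lower in aba2-1 than in Col-0 under mock treatment, and higher after 50 nM ABA in both genotypes. It lies on chromosome 1, 9.331 Mb from ABA2. Its coding sequence is 68.1% to 75.4% identical to those of IGMT1 to IGMT4. Identity is 93% to 93.4% among IGMT1, IGMT3 and IGMT4, and 82.2% to 86.3% between IGMT2 and each of those. IGMT5 was called in more comparisons than any other gene of the set.

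Normalised reads of IGMT5 were 1414 and 1409 in Col-0 mock, 1550 and 1454 at 10 nM ABA and 2116, 2182 and 2087 at 50 nM ABA. In aba2-1 they were 863, 745 and 761 in mock, 1428, 1074 and 1152 at 10 nM and 1158, 1054 and 1010 at 50 nM. The 3 aba2-1 mock libraries lay below both Col-0 mock libraries, and every treated aba2-1 library lay above every aba2-1 mock library. IGMT5 was lower in aba2-1 mock than in Col-0 mock (log2 difference -0.84, SE 0.12, adjusted p = 0.00046). It rose in aba2-1 at 10 nM (log2 difference 0.62, SE 0.11, adjusted p = 0.0035) and at 50 nM (log2 difference 0.44, SE 0.11, adjusted p = 0.0061). These 3 calls held without any single library, but the rise at 50 nM was not called when only those groups were fitted (adjusted p = 0.16) or when each group had its own spread (adjusted p = 0.13). It also rose in Col-0 at 50 nM (log2 difference 0.59, SE 0.12, adjusted p = 0.017), a call lost when replicate 1 or 2 of Col-0 mock or replicate 1 or 2 of Col-0 50 nM ABA was left out (adjusted p up to 0.25). Its interaction of genotype and 50 nM ABA was not called (log2 difference -0.15, SE 0.16, adjusted p = 0.65).

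**Figure D1:**
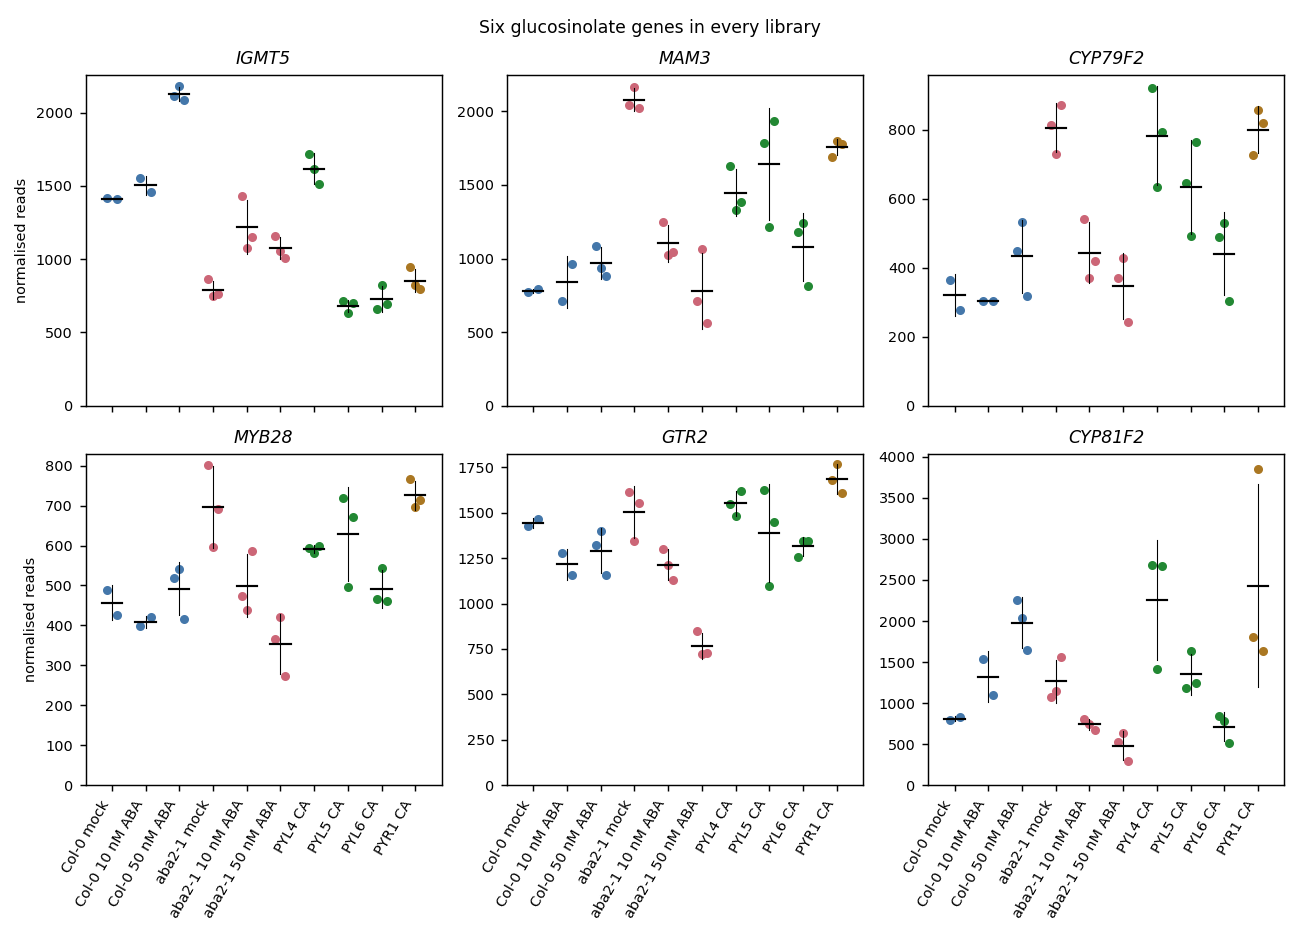
Normalised reads (linear axis from 0) of 6 genes in each of the 28 libraries; points are libraries, long bars the group mean and thin lines the SD. IGMT5 is lower in aba2-1 mock than in Col-0 mock and higher in PYL4 CA than in the other CA lines, while MAM3 and CYP79F2 are highest in aba2-1 mock among the Col-0 and aba2-1 groups.

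In mock-treated seedlings, 3 of the 41 genes (2 higher, 1 lower) differed between aba2-1 and Col-0, where 0.59% of all 21023 tested loci were called. Besides IGMT5, these were 2 aliphatic genes. MAM3 (AT5G23020) encodes a methylthioalkylmalate synthase that elongates methionine, including to long chains. MAM3 read 2046, 2169 and 2026 in aba2-1 mock and 769 and 791 in Col-0 mock, with no overlap (log2 difference 1.41, SE 0.22, adjusted p = 0.00088), and the call held without any single library. Its paralog MAM1 (AT5G23010), the short-chain synthase with 80.2% identical coding sequence, read 2006, 2263 and 2246 against 1630 and 1420 and was not called (log2 difference 0.51, SE 0.20, adjusted p = 0.43). CYP79F2 (AT1G16400), which oxidises long-chain elongated methionine, read 814, 730.1 and 872 in aba2-1 mock and 363 and 277 in Col-0 mock (log2 difference 1.34, SE 0.26, adjusted p = 0.0089); this call disappeared when replicate 1 or 2 of Col-0 mock was left out (adjusted p up to 0.25). CYP79F1 and CYP79F2 share 91.3% of their coding sequence, so the assignment of reads to either is uncertain, and their sum was not called (log2 difference 0.91, SE 0.31, adjusted p = 0.28). Of the 19 tested aliphatic genes, 16 had a positive difference, with a median of 0.59 on the log2 scale against -0.004 over all loci, and the 16 indolic genes had a median of -0.093. The 9 root markers summed to 4094 to 4474 normalised reads in aba2-1 mock and 3574 to 3722 in Col-0 mock, without overlap, and their part in these differences was not tested.

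In Col-0, 10 nM ABA called 0 of the 41 genes with limma, where 0.0285% of all loci were called; 1 gene had an unadjusted p under 0.05, and edgeR and DESeq2 also called 0. The aliphatic genes had a median log2 difference of -0.19 and the indolic genes one of 0.067. At 50 nM ABA, 1 of 41 genes, IGMT5, was called and 1.01% of all loci were. The indolic genes' median difference was 0.44 and the aliphatic median 0.11, against -0.008 over all loci. Of the 16 indolic genes, 14 were positive and 10 had an unadjusted p under 0.05. The shares of all loci at that p or of that sign are not given here, and genes of a branch deviated together between replicates. Marker sums moved with the dose: the 9 shoot genes summed to 689900 to 761300 normalised reads at 50 nM and 862300 to 914400 in Col-0 mock, and the 9 guard cell and stomatal lineage genes to 1411 to 1686 and 1990 to 2044, without overlap, while the 9 root genes, at 3171 to 3674 and 3574 to 3722, overlapped. Their part in these differences was not tested. CYP81F2 (AT5G57220), whose product makes the precursor of the defence compound 4-methoxyindol-3-ylmethyl glucosinolate, read 2257, 2036 and 1652 at 50 nM, 1540 and 1102 at 10 nM and 788 and 834 in Col-0 mock. The 50 nM libraries lay above both mock libraries, but the adjusted p missed the threshold (log2 difference 1.28, SE 0.34, adjusted p = 0.072). The regulator MYB51 (AT1G18570) read 1134, 1435 and 1097 at 50 nM and 711 and 658 in mock (log2 difference 0.82, SE 0.30, adjusted p = 0.25). CYP79B2 (AT4G39950), which converts tryptophan to the aldoxime, read 4193, 3684 and 3096 at 50 nM against 2566 and 2341 in mock (log2 difference 0.57, SE 0.16, adjusted p = 0.084).

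In aba2-1, 10 nM ABA called 2 of the 41 genes (1 higher, 1 lower), where 0.975% of all loci were called. IGMT5 rose and MAM3 fell. MAM3 read 1250, 1022 and 1042 at 10 nM, all below the aba2-1 mock libraries (log2 difference -0.92, SE 0.20, adjusted p = 0.018); its call was lost when replicate 1, 2 or 3 of aba2-1 mock or replicate 2 or 3 of aba2-1 10 nM ABA was left out (adjusted p up to 0.087). All 19 aliphatic genes tested had a negative difference, with a median of -0.39 against 0 over all loci. Replicate 3, the library with 76.1% ribosomal RNA, read 1042 for MAM3, between the other 2 libraries.

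At 50 nM ABA, 17 of the 41 genes changed in aba2-1, 15 of them lower, where 24.8% of all loci were called and 12.1% of all loci were called lower. Genes of aliphatic synthesis fell at the regulator, chain elongation, core and side-chain steps: 8 of 19 aliphatic genes fell and 0 rose. Of 16 indolic genes, 5 fell and 2 rose. The count depended on how the spread was estimated: 6 genes were called when only these groups were fitted and 4 when each group had its own spread, and GTR2 and MAM3 were called both times. Each of the other 15 lost its call in one of these fits or in both, MYB28 only narrowly (adjusted p = 0.053 in the fit of these groups alone).

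Of the aliphatic regulators, MYB28 (AT5G61420) read 365, 422 and 274 at 50 nM against 802, 597 and 692 in aba2-1 mock, without overlap (log2 difference -0.99, SE 0.16, adjusted p = 0.0001). MYB29 (AT5G07690), its close partner, read 57.2, 104 and 27.4 against 52.9, 35 and 29.5, with overlap, and was not called (log2 difference 0.52, SE 0.45, adjusted p = 0.4). MYB76, the third of this group, read 0 to 7 in every library. MYB28 was thus the called regulator of this branch.

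Chain elongation held the largest fall among the aliphatic genes. MAM3 read 711, 1066 and 559.6 at 50 nM against 2046, 2169 and 2026 in mock (log2 difference -1.47, SE 0.20, adjusted p = 1.1e-05). MAM1 read 2430, 3122 and 1955 against 2006, 2263 and 2246 and was not called (log2 difference 0.18, SE 0.18, adjusted p = 0.47); the difference between the 2 synthases was not tested. BCAT4 (AT3G19710), the aminotransferase that opens the pathway, read 554, 524 and 667 against 1038, 1320 and 1039 (log2 difference -0.96, SE 0.23, adjusted p = 0.0045). IMD1 (AT5G14200), the isopropylmalate dehydrogenase, read 1107, 1130 and 1013 against 1795, 1630 and 1784 (log2 difference -0.68, SE 0.15, adjusted p = 0.0028). IIL1 (AT4G13430), the large isomerase subunit, read 2376, 1498 and 3266 against 3946, 3849 and 3953 (log2 difference -0.79, SE 0.18, adjusted p = 0.0044). None of these 4 genes overlapped between groups, but they are named because they were called, and the share of all loci without overlap is not given. The small isomerase subunits IPMI2 (AT2G43100) and IPMI1 (AT3G58990) and the plastid importer BASS5 (AT4G12030) were not called, with log2 differences of -0.029, -0.65 and -0.61.

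In the aliphatic core, CYP79F2 read 368, 429 and 242 at 50 nM against 814, 730.1 and 872 in mock (log2 difference -1.25, SE 0.23, adjusted p = 0.00049). CYP79F1 (AT1G16410) read 734, 644 and 409.8 against 573, 506 and 639.8 (log2 difference 0.021, SE 0.38, adjusted p = 0.97). The sum of both was not called (log2 difference -0.58, SE 0.27, adjusted p = 0.11). Adding a gene without a difference can also lose a call, so the sum does not show whether reads were split wrongly, which was not tested. CYP83A1 (AT4G13770), the next enzyme, read 853, 790.0 and 858 against 1424, 1460 and 1762 (log2 difference -0.89, SE 0.25, adjusted p = 0.014), a call lost when replicate 3 of aba2-1 mock or replicate 2 of aba2-1 50 nM ABA was left out (adjusted p up to 0.066). The glucosyltransferase UGT74C1 (AT2G31790) and the sulfotransferases SOT17 (AT1G18590) and SOT18 (AT1G74090) were not called, at -0.016, 0.19 and -0.28 on the log2 scale. Of the S-oxygenases, FMO GS-OX5 (AT1G12140) read 313, 322 and 379 against 491, 436 and 515 (log2 difference -0.51, SE 0.12, adjusted p = 0.0048), while FMO GS-OX1 (AT1G65860) and FMO GS-OX3 (AT1G62560) were not called, at -0.11 and -0.52. SUR1 (AT2G20610), the C-S lyase both branches need, read 1050, 1076 and 1211 against 1527, 1588 and 1801 (log2 difference -0.56, SE 0.13, adjusted p = 0.0038). UGT74B1 (AT1G24100), the shared glucosyltransferase, read 2509, 4593 and 1523 against 1685, 1488 and 2105 and was not called (log2 difference 0.58, SE 0.24, adjusted p = 0.081).

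Within the indolic branch, the genes that fell were side-chain genes and CYP83B1. CYP81F2 read 521, 632 and 296 at 50 nM against 1078, 1151 and 1560 in aba2-1 mock, with no overlap (log2 difference -1.44, SE 0.30, adjusted p = 0.002). CYP83B1 (AT4G31500), which oxidises the indole aldoxime, read 5214, 3684 and 4172 against 5772, 5946 and 9135 (log2 difference -0.66, SE 0.18, adjusted p = 0.013), a call lost when replicate 3 of aba2-1 mock or replicate 2 of aba2-1 50 nM ABA was left out (adjusted p up to 0.098). The upstream CYP79B2 and CYP79B3 (AT2G22330) and the sulfotransferase SOT16 (AT1G74100) were not called, at 0.12, -0.009 and -0.14. IGMT4 (AT1G21130), a methyltransferase of the ring, read 2155, 2874 and 2355 against 3262, 4909 and 4615 (log2 difference -0.78, SE 0.19, adjusted p = 0.0065). IGMT2 (AT1G21120) was called with overlapping groups (log2 difference -1.07, SE 0.35, adjusted p = 0.029), and that call was lost when replicate 2 or 3 of aba2-1 mock or replicate 2 or 3 of aba2-1 50 nM ABA was left out (adjusted p up to 0.19). IGMT1 (AT1G21100) and IGMT3 (AT1G21110) were not called, at -0.22 and -0.26, and because reads of IGMT1 to IGMT4 may be split unevenly, their sum was also fitted: it fell as well (log2 difference -0.66, SE 0.18, adjusted p = 0.011). CYP81F1 (AT4G37430) was called lower with overlapping groups (log2 difference -0.84, SE 0.30, adjusted p = 0.042), and that call was lost when replicate 1 or 3 of aba2-1 mock or replicate 1 or 3 of aba2-1 50 nM ABA was left out (adjusted p up to 0.21).

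Against this direction, IGMT5 rose, and CYP81F4 (AT4G37410), the hydroxylase that acts before it, read 9802, 17313 and 6118 at 50 nM against 5761, 6186 and 7735 in mock without passing the test (log2 difference 0.64, SE 0.25, adjusted p = 0.062). CYP81F3 (AT4G37400), a further hydroxylase of the family, had a difference of -0.44. The regulator MYB34 (AT5G60890) read 846, 629.9 and 856 against 662, 509 and 578, overlapping groups that were called higher (log2 difference 0.41, SE 0.13, adjusted p = 0.026), a call lost when replicate 2 or 3 of aba2-1 mock or replicate 1 or 3 of aba2-1 50 nM ABA was left out (adjusted p up to 0.12). MYB51 and MYB122 (AT1G74080), the other indolic activators, were not called, at -0.46 and 0.43.

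Transport held the smallest p-value of the set at 50 nM. GTR2 (AT5G62680), a plasma membrane importer that loads glucosinolates into the phloem, read 849.6, 720.2 and 728 at 50 nM, 1300, 1213 and 1130 at 10 nM and 1615, 1346 and 1555 in aba2-1 mock. The 50 nM libraries lay below all libraries of the other 2 groups (log2 difference -0.97, SE 0.12, adjusted p = 3.5e-06 against mock). GTR1 (AT3G47960), its partner, read 239, 291 and 179.5 at 50 nM and 399.6, 241 and 252 in mock and was not called (log2 difference -0.32, SE 0.20, adjusted p = 0.24). The myrosinases TGG1 (AT5G26000) and TGG2 (AT5G25980) were called in none of the pairwise comparisons, the interaction or the F test; at 50 nM ABA in aba2-1 their differences were 0.21 (SE 0.12) and 0.14 (SE 0.19). TGG1 group means ran from 13420 in aba2-1 10 nM ABA to 18170 in Col-0 10 nM ABA, and TGG2 means from 2204 in PYL4 CA to 4211 in Col-0 10 nM ABA. The 9 guard cell and stomatal lineage markers summed to 1905 to 2041 normalised reads in aba2-1 mock and 1742 to 2908 in aba2-1 50 nM ABA.

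Between the doses in aba2-1, 3 of 41 genes were lower at 50 than at 10 nM, where 11.6% of all loci were called and 5.47% were called lower. This comparison shares the 50 nM libraries with the one above. GTR2 fell further (log2 difference -0.67, SE 0.12, adjusted p = 0.0014), and the call held without any single library, but not in the fit of these groups alone (adjusted p = 0.22). MYB28 (-0.51, adjusted p = 0.04) was lost when replicate 1, 2 or 3 of aba2-1 10 nM ABA or replicate 1 or 3 of aba2-1 50 nM ABA was left out (adjusted p up to 0.13). IIL1 (-0.56, adjusted p = 0.049) was lost when replicate 1, 2 or 3 of aba2-1 10 nM ABA or replicate 1 or 2 of aba2-1 50 nM ABA was left out (adjusted p up to 0.44). The number called ran from 1 (without replicate 1, 2 or 3 of aba2-1 10 nM ABA or replicate 1 of aba2-1 50 nM ABA) to 11 (without replicate 3 of aba2-1 50 nM ABA) when single libraries were left out.

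The response to 50 nM ABA differed between the genotypes for 7 of 41 genes, all with the lower response in aba2-1, where 2.05% of all loci were called and 1.44% in that direction. MAM3 had log2 differences of 0.31 in Col-0 and -1.47 in aba2-1 (interaction log2 difference -1.77, SE 0.29, adjusted p = 0.0019). CYP81F2, which had the largest interaction of the set, had 1.28 in Col-0 and -1.44 in aba2-1 (interaction log2 difference -2.71, SE 0.46, adjusted p = 0.0023). These 2 interactions held without any single library, though CYP81F2 was not called with a spread per group (adjusted p = 0.07). CYP79F2 had 0.41 and -1.25 (interaction log2 difference -1.67, SE 0.34, adjusted p = 0.0098), a call lost when replicate 2 of Col-0 mock was left out (adjusted p up to 0.11), and the sum with CYP79F1 was not called (log2 difference -0.94, SE 0.41, adjusted p = 0.24). MYB28 had 0.10 and -0.99 (interaction log2 difference -1.09, SE 0.23, adjusted p = 0.014), a call lost when replicate 2 of Col-0 mock was left out (adjusted p up to 0.12). GTR2 had -0.17 and -0.97 (interaction log2 difference -0.81, SE 0.18, adjusted p = 0.016), a call lost when replicate 1 or 2 of Col-0 mock was left out (adjusted p up to 0.097). CYP83B1 (-1.09, adjusted p = 0.036) was lost when replicate 1 or 2 of Col-0 mock, replicate 1 or 2 of Col-0 50 nM ABA, replicate 3 of aba2-1 mock or replicate 2 of aba2-1 50 nM ABA was left out (adjusted p up to 0.2), and IGMT1 (-0.95, adjusted p = 0.049) in 9 of 11 such fits (adjusted p up to 0.24). The interaction of the sum of IGMT1 to IGMT4 was not called (log2 difference -0.82, SE 0.27, adjusted p = 0.11). With single libraries left out, the count ran from 2 (without replicate 2 of Col-0 mock) to 10 (without replicate 3 of aba2-1 50 nM ABA). Mock levels differed too, since MAM3 and CYP79F2 started higher in aba2-1, and at 50 nM MAM3 means were 779 in aba2-1 and 968 in Col-0.

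**Figure D2:**
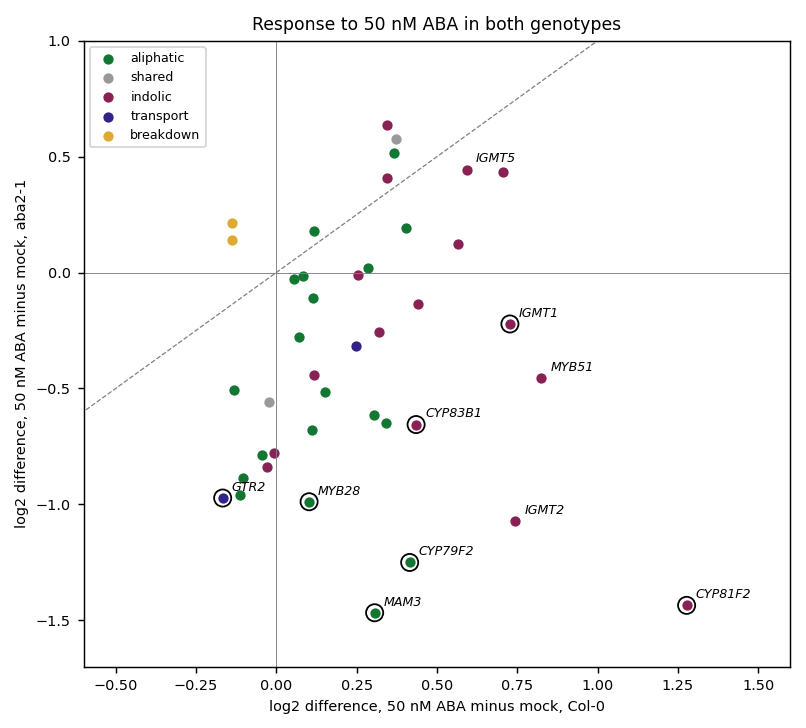
Log2 difference of 50 nM ABA minus mock in Col-0 (horizontal axis) and in aba2-1 (vertical axis) for the 41 tested genes, coloured by branch; open circles mark the 7 genes whose interaction was called and the dashed line marks equal responses. The circled genes lie below the line, from GTR2 at the left to CYP81F2 at the right, and IGMT5 is above 0 on both axes.

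The CA lines had aliphatic genes above Col-0 mock in PYL4 CA, PYL5 CA and the line labelled PYR1 CA. The 4 comparisons share the 2 Col-0 mock libraries and so are not independent. Called were 4 of 41 genes (4 higher) in PYL4 CA against 1.44% of all loci (1.22% higher). In PYL5 CA 7 of 41 were called (5 higher, 2 lower) against 1.59% (1.01% higher). PYL6 CA had 1 of 41 (lower) against 0.157% (0.0856% lower), and PYR1 CA 9 of 41 (8 higher, 1 lower) against 2.81% (2.11% higher). Median log2 differences of the 19 aliphatic genes were 0.77 in PYL4 CA, 0.68 in PYL5 CA, -0.073 in PYL6 CA and 0.79 in PYR1 CA. The same median was 0.59 in aba2-1 mock, which carries no CA form. Against aba2-1 mock, the medians were 0.14 in PYL4 CA, 0.08 in PYL5 CA, -0.71 in PYL6 CA and 0.21 in PYR1 CA. The 9 root markers summed to 3783 to 4109 normalised reads in PYL4 CA, 4109 to 4560 in PYL6 CA and 3891 to 4212 in PYR1 CA, above the 3574 to 3722 of Col-0 mock. The 9 shoot markers summed to 805000 to 845500 in PYL4 CA and 806200 to 816300 in PYR1 CA, below the 862300 to 914400 of Col-0 mock, and the part of these markers was not tested.

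MAM3 read 1630, 1329 and 1382 in PYL4 CA, 1783, 1214 and 1932 in PYL5 CA, 1180, 1241 and 810.5 in PYL6 CA and 1693, 1798 and 1779 in PYR1 CA. The libraries of all 4 lines lay above both Col-0 mock libraries, and the differences were 0.89, adjusted p = 0.041 in PYL4 CA, 1.05, adjusted p = 0.011 in PYL5 CA, 0.44, adjusted p = 0.71 in PYL6 CA and 1.17, adjusted p = 0.0041 in PYR1 CA. CYP79F2 was higher in PYL4 CA (1.28, adjusted p = 0.012) and in PYR1 CA (1.33, adjusted p = 0.0052), and the sum with CYP79F1 was called only in PYR1 CA (log2 difference 1.26, SE 0.31, adjusted p = 0.025), with PYL4 CA at adjusted p = 0.056. IMD1 was higher in the same lines (0.83, adjusted p = 0.013 and 0.77, adjusted p = 0.014). The small isomerase subunits were higher in PYL5 CA (IPMI2 1.03, adjusted p = 0.013; IPMI1 1.23, adjusted p = 0.048) and in PYR1 CA (IPMI2 0.79, adjusted p = 0.048; IPMI1 1.39, adjusted p = 0.018). MAM1 was called in PYL5 CA (0.82, adjusted p = 0.036). SOT18, an aliphatic sulfotransferase, was called in PYL5 CA (0.68, adjusted p = 0.039) and PYR1 CA (0.62, adjusted p = 0.045). MYB28 was called in PYR1 CA (0.67, adjusted p = 0.037). Of these 15 calls of higher aliphatic genes, 15 were lost when replicate 2 of Col-0 mock was left out and 13 when replicate 1 was (adjusted p up to 0.59). The number of genes called ran from 0 (without replicate 1 or 2 of Col-0 mock or replicate 1 of PYL4 CA) to 3 (without replicate 2 of PYL4 CA) in PYL4 CA, from 1 (without replicate 1 of Col-0 mock) to 9 (without replicate 2 of PYL5 CA) in PYL5 CA and from 0 (without replicate 2 of Col-0 mock) to 6 (without replicate 1 or 3 of PYR1 CA) in PYR1 CA. Within PYL5 CA, the 9 root markers summed to 4765, 3217 and 5266 normalised reads in replicates 1, 2 and 3 and the 9 shoot markers to 755304, 1050119 and 584281, and their part in these values was not tested.

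In the indolic branch, CYP81F2 read 2687, 1414 and 2672 in PYL4 CA, 1809, 3855 and 1632 in PYR1 CA, 1181, 1640 and 1241 in PYL5 CA and 841, 783 and 508 in PYL6 CA. It was higher than in Col-0 mock in PYL4 CA (log2 difference 1.42, SE 0.34, adjusted p = 0.037) and in PYR1 CA (log2 difference 1.47, SE 0.34, adjusted p = 0.019). The first call was lost when replicate 1 or 2 of Col-0 mock or replicate 1 or 3 of PYL4 CA was left out (adjusted p up to 0.3), and the second when replicate 1 or 2 of Col-0 mock or replicate 2 of PYR1 CA was left out (adjusted p up to 0.19). CYP79B3, the second tryptophan-converting enzyme, read 2127, 2154 and 2120 in PYL5 CA against 3437 and 3156 in Col-0 mock and was lower (log2 difference -0.63, SE 0.11, adjusted p = 0.0044), a call lost when replicate 1 of Col-0 mock was left out (adjusted p up to 0.13).

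IGMT5 split the CA lines. It read 1720, 1617 and 1510 in PYL4 CA, 712, 634 and 697 in PYL5 CA, 662, 826 and 693 in PYL6 CA and 943, 822 and 794 in PYR1 CA. Every PYL4 CA library lay above both Col-0 mock libraries, and every library of the other 3 lines below them. Against Col-0 mock, IGMT5 was lower in PYL5 CA (log2 difference -1.05, SE 0.12, adjusted p = 3.7e-05), PYL6 CA (log2 difference -0.96, SE 0.12, adjusted p = 0.00021) and PYR1 CA (log2 difference -0.73, SE 0.12, adjusted p = 0.0018), and was not called in PYL4 CA (log2 difference 0.19, SE 0.12, adjusted p = 0.62). The PYR1 CA call was lost when replicate 2 of Col-0 mock was left out (adjusted p up to 0.053), and the PYL5 CA call when only these groups were fitted (adjusted p = 0.16). Mean normalised reads of IGMT5 were 681 in PYL5 CA, 727 in PYL6 CA and 853 in PYR1 CA, beside 789.5 in aba2-1 mock. Against aba2-1 mock, IGMT5 was called in none of these 3 lines. Ordered by mean, IGMT5 was highest in Col-0 50 nM ABA, then PYL4 CA, Col-0 10 nM ABA, Col-0 mock, aba2-1 10 nM ABA, aba2-1 50 nM ABA, PYR1 CA, aba2-1 mock, PYL6 CA and PYL5 CA; the values of neighbours overlapped except between Col-0 50 nM ABA and PYL4 CA, between Col-0 10 nM ABA and its mock group, and between aba2-1 50 nM ABA and PYR1 CA.

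The CA lines were also compared with aba2-1 mock, and these 4 comparisons share the 3 aba2-1 mock libraries. PYL4 CA had 4 of 41 genes called, all higher, against 2.48% of all loci (1.97% higher). PYL5 CA had 0 of 41 by limma against 0.157% (5 genes at an unadjusted p under 0.05; 0 by edgeR and 0 by DESeq2). PYL6 CA had 2 of 41, both lower, against 0.119% (0.0476% lower), and PYR1 CA 1 of 41, higher, against 1.15% (1.04% higher).

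In PYL4 CA the genes above aba2-1 mock were IGMT5 (log2 difference 1.03, SE 0.11, adjusted p = 9.6e-06), CYP79B2 (log2 difference 0.73, SE 0.14, adjusted p = 0.0059), CYP79B3 (log2 difference 0.40, SE 0.10, adjusted p = 0.031) and SOT17 (log2 difference 0.75, SE 0.20, adjusted p = 0.046). IGMT5 held without any single library, and CYP79B2 was lost when replicate 2 of aba2-1 mock or replicate 1 of PYL4 CA was left out (adjusted p up to 0.06). CYP79B2 read 3645, 3010 and 3446 in PYL4 CA and 1835, 1827 and 2467 in aba2-1 mock, without overlap. CYP79B3 was lost without each of the 6 libraries in turn (adjusted p up to 0.22), and SOT17 when replicate 1, 2 or 3 of aba2-1 mock or replicate 1 or 3 of PYL4 CA was left out (adjusted p up to 0.29).

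In PYL6 CA all 19 aliphatic genes had a negative difference from aba2-1 mock, with a median of -0.71 on the log2 scale against 0.006 over all loci. MAM3 (log2 difference -0.97, SE 0.20, adjusted p = 0.044) and IMD1 (log2 difference -0.74, SE 0.15, adjusted p = 0.048) were called, and both calls were lost without each of the 6 libraries in turn (adjusted p up to 0.51 and 0.58) and with edgeR (adjusted p = 0.057 and 0.062). In PYR1 CA, GTR1 read 559.6, 632 and 505 against 399.6, 241 and 252 in aba2-1 mock (log2 difference 0.96, SE 0.20, adjusted p = 0.021), a call lost when replicate 2 or 3 of aba2-1 mock or replicate 1 or 2 of PYR1 CA was left out (adjusted p up to 0.2).

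**Figure D3:**
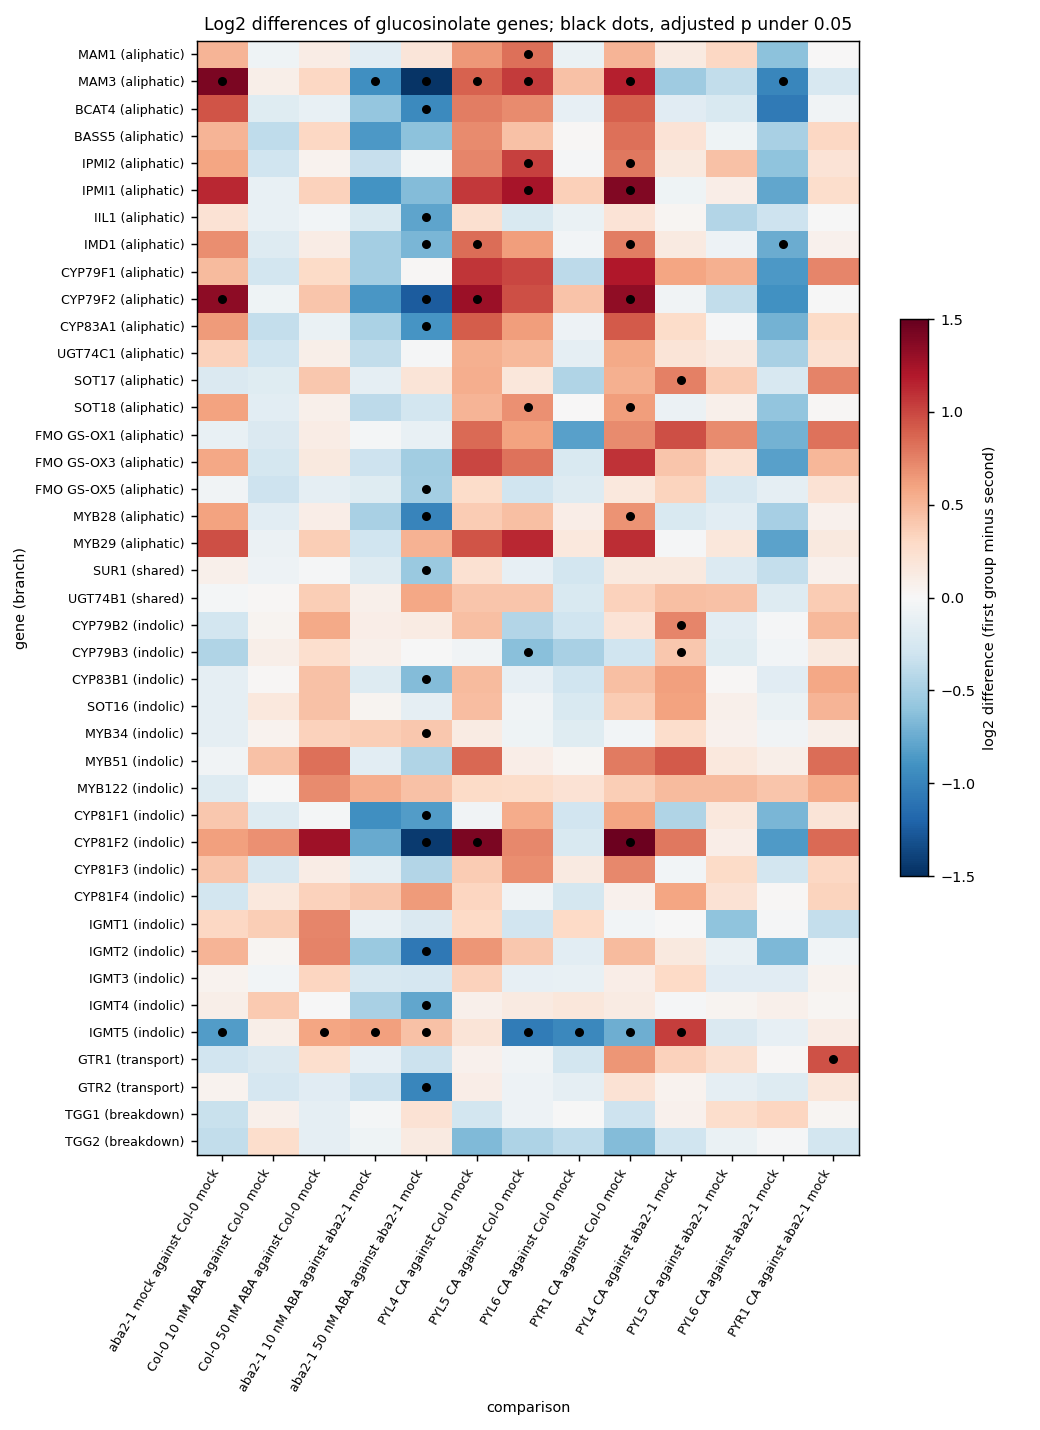
Log2 differences (colour, first group minus second) of the 41 tested genes, in rows by branch, for 13 comparisons in columns; black dots mark calls at an adjusted p under 0.05. The aliphatic rows are mostly red in aba2-1 mock and in PYL4 CA, PYL5 CA and PYR1 CA against Col-0 mock, and blue in aba2-1 at 10 nM ABA and in PYL6 CA against aba2-1 mock; columns that share a control group are not independent.

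An F test across the 4 CA lines, which uses no mock library, called 17 of 41 genes, where 3.36% of all loci were called. These were 10 of 19 aliphatic genes, 6 of 16 indolic genes and GTR1. Leaving out single libraries, the count ran from 5 (without replicate 3 of PYL6 CA) to 20 (without replicate 2 of PYL5 CA). IGMT5 had the smallest p-value of the set (adjusted p = 1.2e-06). CYP79B2 (adjusted p = 0.0013), CYP79B3 (adjusted p = 0.0065), CYP81F2 (adjusted p = 0.0047) and FMO GS-OX5 (adjusted p = 0.012) held, like IGMT5, without any single library.

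The F test does not say which lines differ, so line means of called genes are given. IMD1 had 1909 ± 189 (SD, n = 3) in PYL4 CA, 1653 ± 119 (SD, n = 3) in PYL5 CA and 1817 ± 125 (SD, n = 3) in PYR1 CA, and 1051 ± 189 (SD, n = 3) in PYL6 CA (adjusted p = 0.0037). IPMI2 had 1561 ± 175 (SD, n = 3) in PYL5 CA and 759 ± 97.3 (SD, n = 3) in PYL6 CA as its highest and lowest means (adjusted p = 0.011). FMO GS-OX1, an S-oxygenase, had 194 ± 6.18 (SD, n = 3) in PYL4 CA and 62.8 ± 19.8 (SD, n = 3) in PYL6 CA (adjusted p = 0.0091). In these 3 aliphatic genes PYL6 CA was the lowest line, and its libraries did not overlap those of the other lines. PYL6 CA libraries also lay below those of the other lines for MAM1, BCAT4, CYP79F1, SOT17 and SOT18, but not for CYP83A1 or FMO GS-OX5. All these genes were called on the same values, and the share of all loci without such overlap is not given. PYL6 CA also had the lowest mean in the other called aliphatic genes except FMO GS-OX5. For FMO GS-OX5 the lowest mean was that of PYL5 CA, at 409, beside 437 in PYL6 CA, 563 in PYR1 CA and 607 in PYL4 CA.
CYP79B2, in the indolic branch, was highest in PYL4 CA at 3367 ± 325 (SD, n = 3) and lowest in PYL5 CA at 1817 ± 239 (SD, n = 3). CYP79B3 was at 3194 ± 265 (SD, n = 3) and 2134 ± 17.7 (SD, n = 3) in the same lines. CYP83B1 was at 10410 ± 824 (SD, n = 3) in PYL4 CA and 10450 ± 2970 (SD, n = 3) in PYR1 CA, against 6078 ± 702 (SD, n = 3) in PYL6 CA (adjusted p = 0.018). Mean levels in PYL5 CA were below those of PYL4 CA and PYR1 CA for these 3 indolic genes. In the called aliphatic genes, PYL5 CA was above both lines for MAM1, IPMI2 and SOT18. It was below both for the others, among them IMD1, FMO GS-OX5 and SOT17 (700 against 908 in PYL4 CA and 905 in PYR1 CA). No contrast between the branches was tested. GTR1 was highest in PYR1 CA at 566 ± 64 (SD, n = 3) (adjusted p = 0.033). MAM1 (adjusted p = 0.015), BCAT4 (0.027), SOT17 (0.012), SOT18 (0.029), CYP79F1 (0.042), CYP83A1 (0.049) and SOT16 (0.035) made up the rest.

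**Figure D4:**
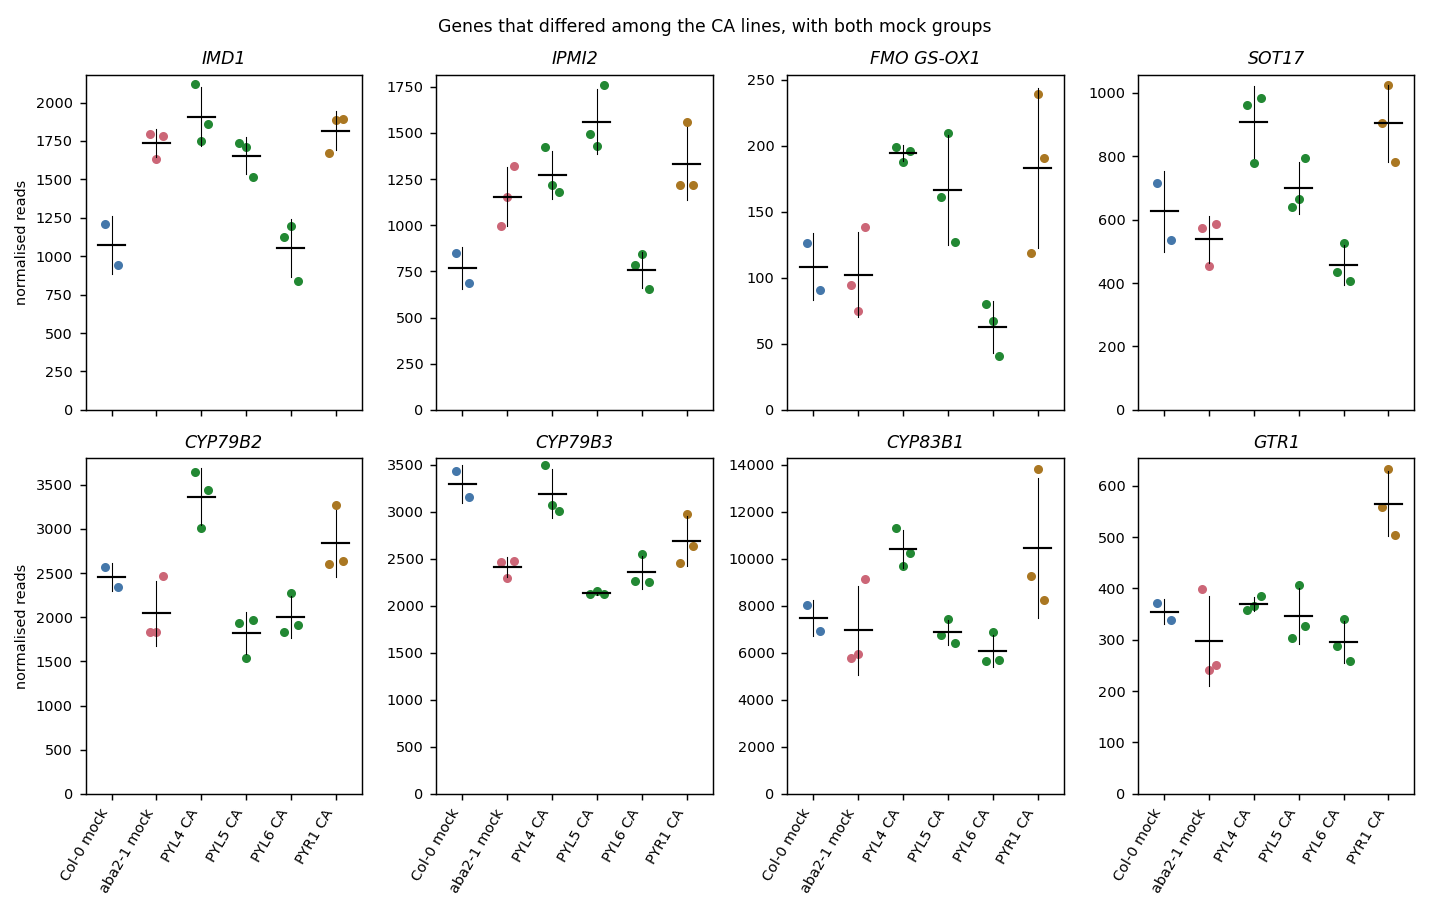
Normalised reads (linear axis from 0) of 8 genes called in the F test among the 4 CA lines, in each library of those lines and of both mock groups; long bars are means and thin lines SDs. Among the 4 CA lines, PYL6 CA has the lowest mean for IMD1, IPMI2 and FMO GS-OX1, PYL4 CA the highest for CYP79B2 and CYP79B3, and PYR1 CA the highest for GTR1; for CYP79B3 the Col-0 mock mean of 3296 is above that of PYL4 CA.

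The 300 bases before each gene's annotated start in the RefSeq TAIR10.1 assembly were searched on both strands for ABA-related motifs. ACGTG, the core that ABA-response factors of the bZIP class bind, was present in 22 of the 42 genes' windows and in 25.6% of 27443 windows of that length genome-wide. The G-box CACGTG, which contains this core on either strand, was present in 3 of 42 windows, against 7.09% of all windows. The longer elements ACGTGGC and ACGTGTC were in 0 of 42, against 7.01%. The G-box windows were those of IIL1, CYP83A1 and SUR1, and the last 100 bases before their starts are shown because they hold it, with core matches in capitals and the positions and strand of that assembly.
IIL1 chr4:7807985-7808084, minus strand: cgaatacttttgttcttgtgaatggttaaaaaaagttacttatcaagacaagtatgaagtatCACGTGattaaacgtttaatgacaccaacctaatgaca
CYP83A1 chr4:7992430-7992529, minus strand: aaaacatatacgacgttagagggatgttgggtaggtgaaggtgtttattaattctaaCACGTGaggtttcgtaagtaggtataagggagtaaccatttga
SUR1 chr2:8880441-8880540, minus strand: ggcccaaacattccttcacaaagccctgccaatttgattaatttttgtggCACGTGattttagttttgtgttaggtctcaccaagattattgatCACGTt
A match or its absence describes these letters and no binding.

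Further genes of the pathway were counted from lists drawn up for this purpose. The lists were chosen with earlier results of these data known, so the counts may partly reflect that choice. Of 15 tested genes of glucosinolate synthesis outside the set, 2 rose and 6 fell in aba2-1 at 50 nM ABA. FMO GS-OX4, a further side-chain S-oxygenase, rose (1495 against 449 normalised reads, log2 difference 1.71, adjusted p = 6.5e-08), in the opposite direction to FMO GS-OX5, and had also risen at 10 nM (log2 difference 0.94, adjusted p = 0.0029). GSTF10 (7540 against 12360 normalised reads, log2 difference -0.72, adjusted p = 0.0031) and GSTF11 (25.1 against 75.5 normalised reads, log2 difference -1.63, adjusted p = 0.0044), glutathione transferases assigned to the core pathway, fell. Of 16 tested breakdown and specifier genes, 3 rose and 4 fell. Nitrile specifier proteins steer hydrolysis towards nitriles: NSP5 rose (10240 against 4746 normalised reads, log2 difference 1.11, adjusted p = 1.8e-05) and NSP4 fell (400.4 against 707 normalised reads, log2 difference -0.82, adjusted p = 0.00076), while the epithiospecifier ESP rose (60.2 against 24.3 normalised reads, log2 difference 1.28, adjusted p = 0.0026). Of 8 sulfur assimilation and deficiency genes, 4 fell and 0 rose, among them GGCT2;1, which recycles glutathione (5.88 against 42.8 normalised reads, log2 difference -2.75, adjusted p = 0.00018), and the APS reductase APR1 (951 against 1595 normalised reads, log2 difference -0.76, adjusted p = 0.0068). Of 9 further regulators and transporters, MYC3, a bHLH partner of the MYB factors, rose (2329 against 1374 normalised reads, log2 difference 0.70, adjusted p = 0.036) and SDI1, a repressor under sulfur shortage, fell (8.75 against 34.3 normalised reads, log2 difference -1.75, adjusted p = 0.0065). Among 3 tested genes of camalexin synthesis, which also starts from the indole aldoxime, PAD3 fell (52.8 against 145 normalised reads, log2 difference -1.66, adjusted p = 0.0032). Of the 9 genes of guard cells and the stomatal lineage, 1 rose (SLAC1) and 2 fell (HT1 and TMM); of the 9 root genes, 1 rose and 2 fell; of the 9 shoot genes, 1 fell. Of the genes named here, MYC3 lost its call when replicate 1, 2 or 3 of aba2-1 mock or replicate 1 or 2 of aba2-1 50 nM ABA was left out (adjusted p up to 0.3) and TMM when replicate 2 or 3 of aba2-1 mock or replicate 1 or 2 of aba2-1 50 nM ABA was left out (adjusted p up to 0.33). Over all loci, 24.8% were called in that comparison.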

How the data were processed

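Expression was measured by stranded RNA-seq of whole seedlings in 28 libraries. Per the submitters' processing notes, Trimmomatic 0.38, Salmon 1.3.0, edgeR 3.28.0 and the TAIR10 build were used; their roles and settings are not given in the sources used here. The authors deposited 1 table of 23686 rows (23681 loci and 5 other rows) whose values, classed as signal, are read counts divided by 1 size factor per library: values divided by the smallest step were whole within 0.01 in 100% of cases. The recovered reads gave the depth of each library. Loci with at least 10 normalised reads in at least 2 libraries (21023) were tested with limma 3.58.1 (trend, robust) in R 4.3.3 on log2(value + 1), with 1 mean per group over all 28 libraries and Benjamini-Hochberg adjustment over all loci; calls are at 0.05, and log2 differences understate changes of low genes. The 5 other rows stayed out of the tests.

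Groups followed the labels. Every gene of the set was given a level; genes called were given with SE and adjusted p, up to 6 per branch and comparison in full. Alternatives were edgeR 4.0.16 (quasi-likelihood, TMM) and DESeq2 1.42.0 on recovered reads, a pseudocount of 10, no filter, only the groups compared and a spread per group. Others were a replicate block, sums over CYP79F1 and CYP79F2 and over IGMT1 to IGMT4, and leaving out single libraries. Leaving out the 3 libraries that stand apart was added after seeing the data. The genes of the set and the lists were chosen with earlier results of these data known. Tests were tried on simulated data. Sequences are from RefSeq's TAIR10.1; coding identities used edlib 1.3.9.post1. Promoter sequences of some genes are not reported here. Counts of no 2 libraries of a group matched within counting error. A value from replicates is the mean ± SD; counting error limits low genes such as MYB76.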

Additional observations from a re-analysis of the deposited data

Results flagged for a closer look

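The effect of 50 nM ABA differed between aba2-1 and Col-0, by the interaction term of the limma fit, in 7 of the 41 tested genes. Of all loci, 2.05% were called and 1.44% were called in the same direction. Only the MAM3 and CYP81F2 calls held without any single library, and fewer genes were called when only the compared groups were fitted. The log2 effect in aba2-1 minus that in Col-0 was -1.77 for MAM3, -1.67 for CYP79F2, -1.09 for CYP83B1, -1.09 for MYB28, -2.71 for CYP81F2, -0.95 for IGMT1 and -0.81 for GTR2. In Col-0 these 7 genes had effects of 0.31, 0.41, 0.43, 0.10, 1.28, 0.73 and -0.17, none of them called, in the same order. By limma, the interaction was not called for the sum of CYP79F1 and CYP79F2 (adjusted p = 0.24) or of IGMT1 to IGMT4 (adjusted p = 0.11).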

How the results depend on the processing

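Of 61 calls of single genes in pairwise comparisons and the interaction, 21 held without any single library, and 0 changed direction under any alternative. With edgeR 53 remained called, with DESeq2 60, with a pseudocount of 10 61, without the filter 56, with only the groups compared 30, with a spread per group 36, and without the 3 libraries that stand apart 57. The replicate numbers did not pair libraries: same-numbered deviations correlated at -0.589 to 0.252 (median 0.0025), over 0.1 in 18 of 117 pairs. With a replicate block, 58 of the 61 calls remained; the number of genes called moved to 3 for Col-0 50 nM ABA and to 1 for PYL6 CA against aba2-1 mock.

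With DESeq2, the number of genes called moved to 8 for aba2-1 against Col-0 mock, 4 for Col-0 50 nM ABA, 8 for PYL4 CA against Col-0 mock, 2 for PYL6 CA against Col-0 mock, 4 for PYR1 CA against aba2-1 mock and 30 for the F test. With only the groups compared, the number of genes called moved to 10 for aba2-1 against Col-0 mock, 5 for Col-0 50 nM ABA, 6 for aba2-1 10 nM ABA, 6 for aba2-1 50 nM ABA, 0 for aba2-1 50 nM ABA against aba2-1 10 nM ABA, 2 for the interaction, 17 for PYL4 CA against Col-0 mock, 0 for PYL5 CA against Col-0 mock, 2 for PYL6 CA against Col-0 mock, 15 for PYR1 CA against Col-0 mock, 8 for PYL4 CA against aba2-1 mock, 0 for PYL6 CA against aba2-1 mock and 0 for PYR1 CA against aba2-1 mock. With a spread per group, the number of genes called moved to 10 for aba2-1 against Col-0 mock, 5 for Col-0 50 nM ABA, 4 for aba2-1 50 nM ABA, 0 for aba2-1 50 nM ABA against aba2-1 10 nM ABA, 3 for the interaction, 22 for PYL4 CA against Col-0 mock, 2 for PYL5 CA against Col-0 mock, 2 for PYL6 CA against Col-0 mock, 25 for PYR1 CA against Col-0 mock, 10 for PYL4 CA against aba2-1 mock, 6 for PYL6 CA against aba2-1 mock, 6 for PYR1 CA against aba2-1 mock and 31 for the F test. Without the 3 libraries that stand apart, the number of genes called moved to 8 for aba2-1 against Col-0 mock, 3 for Col-0 50 nM ABA, 8 for PYL4 CA against Col-0 mock, 12 for PYL5 CA against Col-0 mock, 2 for PYL6 CA against Col-0 mock, 9 for PYL4 CA against aba2-1 mock, 4 for PYL5 CA against aba2-1 mock, 3 for PYR1 CA against aba2-1 mock and 31 for the F test. With edgeR, the number of genes called moved to 0 for PYL6 CA against aba2-1 mock. Shares of all loci called under these alternatives, or with single libraries left out, are not given here, so these counts cannot be set against them. Leaving out single libraries gave 2 to 3 for aba2-1 against Col-0 mock, 0 to 0 for Col-0 10 nM ABA, 0 to 2 for Col-0 50 nM ABA, 1 to 2 for aba2-1 10 nM ABA, 12 to 17 for aba2-1 50 nM ABA, 1 to 11 for aba2-1 50 nM ABA against aba2-1 10 nM ABA, 2 to 10 for the interaction, 0 to 3 for PYL4 CA against Col-0 mock, 1 to 9 for PYL5 CA against Col-0 mock, 1 to 1 for PYL6 CA against Col-0 mock, 0 to 6 for PYR1 CA against Col-0 mock, 1 to 4 for PYL4 CA against aba2-1 mock, 0 to 1 for PYL5 CA against aba2-1 mock, 0 to 0 for PYL6 CA against aba2-1 mock, 0 to 2 for PYR1 CA against aba2-1 mock and 5 to 20 for the F test.

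In groups of 2 or 3 libraries with unequal spread, a p-value that misses the threshold does not show that levels were equal, and near-identical genes share reads. Depth limits the rarest genes: MYB76 read 0 to 7 in every library. In aba2-1 50 nM ABA the spread was widest and the number of calls depended on how it was estimated; the cause was not tested.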

Other observations

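Between replicates of a group, genes of the same branch deviated together. The mean pairwise correlation of deviations from group means was 0.446 among the 19 aliphatic genes, 0.308 among the 16 indolic genes, 0.238 between the branches and 0.002 over all tested loci, across 28 libraries. Without aba2-1 50 nM ABA and PYL5 CA, the groups with the widest spread, the values were 0.633, 0.345, 0.281 and 0.002 over 22 libraries. Libraries share depth and composition, and no test was made.

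NSP1, a nitrile specifier gene, was lower than in Col-0 mock in aba2-1 mock (6243 against 9852 normalised reads, log2 difference -0.66, adjusted p = 0.0074), in PYL5 CA (6695 against 9852 normalised reads, log2 difference -0.56, adjusted p = 0.019), in PYL6 CA (6200 against 9852 normalised reads, log2 difference -0.67, adjusted p = 0.018) and in the line labelled PYR1 CA (6745 against 9852 normalised reads, log2 difference -0.55, adjusted p = 0.016). It rose in aba2-1 at 10 nM ABA (8622 against 6243 normalised reads, log2 difference 0.46, adjusted p = 0.042) and at 50 nM ABA (8699 against 6243 normalised reads, log2 difference 0.48, adjusted p = 0.0039). The rise at 50 nM held without any single library; each of the 4 calls against Col-0 mock was lost without replicate 1 and without replicate 2 of Col-0 mock, that of PYL6 CA also without its replicate 1 or 3 and that of PYR1 CA without its replicate 1 (adjusted p up to 0.56), and the rise at 10 nM was lost when replicate 1, 2 or 3 of aba2-1 mock or replicate 1 or 2 of aba2-1 10 nM ABA was left out (adjusted p up to 0.28). IGMT5 was called in these comparisons in the same directions. The comparisons share control libraries, so they do not count as separate evidence. In the line labelled PYR1 CA, 3 of 8 sulfur assimilation genes rose against Col-0 mock: APR1 (log2 difference 0.80, adjusted p = 0.041), APR2 (log2 difference 0.80, adjusted p = 0.041) and APR3 (log2 difference 0.91, adjusted p = 0.045), which encode the APS reductases. Of all loci, 2.81% were called in that comparison and 2.11% were called higher, and each of the 3 calls was lost when replicate 1 or 2 of Col-0 mock or replicate 1 or 2 of PYR1 CA was left out (adjusted p up to 0.48).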
